A study of Triticum turgidum subsp. durum with 36 samples.

Results

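Flag leaves that lack both *GPC-A1* and *GPC-B2* function (*gpc-A1/gpc-B2*, the double mutant) were compared between heading date (HD) and 12 days after anthesis (12 DAA). Of the 80168 genomic loci in the count table, 68307 were tested, namely those where 2 or more libraries of either time each held over 3 reads, and 8 of the 36 libraries entered. The study sequenced RNA of single, entire flag leaves of tetraploid durum wheat (*Triticum turgidum* subsp. durum, variety Kronos) with 3 genotypes, 3 sampling times and 4 replicates each. The double mutant carries premature stop codons, made by chemical mutagenesis, in both *GPC-A1* and *GPC-B2*. All plants, WT included, already lack a working *GPC-B1*, so that the double mutant and the single mutant *gpc-A1* have no functional GPC1, while the intact *GPC-A2* leaves the loss of GPC2 partial. Each mutant allele came from 1 mutagenized line crossed back to Kronos, the plants were siblings grown in a greenhouse under long days, and the leaves were green, without visible yellowing, at the sampled times. WT and *gpc-A1* leaves of HD and 12 DAA (4 each) were used where the response of the double mutant was set beside theirs.

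Monocarpic senescence is the ordered dismantling of leaves after flowering, during which nitrogen, iron and zinc held in leaf proteins are moved to the filling grain. Most leaf nitrogen lies in the chloroplast, in Rubisco, the enzyme that fixes CO2, and in the light-harvesting proteins that bind chlorophyll, and their mRNAs decline as leaves age. The GPC genes (also called NAM) encode NAC transcription factors that promote this process in wheat. Nicotianamine aminotransferases (NAAT) make precursors of phytosiderophores, which bind iron in grasses, and ZIP proteins carry zinc and iron across membranes.

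The 4 HD libraries held 18248833 to 23482849 counted reads and the 4 libraries of 12 DAA 13754124 to 20330152. Counts of replicates of a group differed by more than sampling noise in every pair (chi-square per degree of freedom 6.38 to 52.2), so that no library was counted as a copy of another. On the first principal component of the log2 counts, which took 42.2% of the variance, the HD libraries lay between 51.7 and 64.1 and the 12 DAA libraries at -12.2, -110.5, -69.0 and -46.1 in replicates 1 to 4, replicate 1 of 12 DAA being the nearest to HD. The mesophyll markers were high in all 8 libraries: 10 loci of the Rubisco small subunit made up 1.25% to 1.59% of the normalized counts at HD and 0.394% to 0.807% at 12 DAA, and 17 loci of chlorophyll a-b binding proteins 3.57% to 4.15% and 1.27% to 3.12%. The mutations are single base changes that the count table cannot show, so the level of a GPC gene does not check the genotype labels. The study reports its own check from the reads, with the mutations found in the expected genotypes and in no WT sample. Descriptions of loci are those of the study's annotation for 672 of the 782 loci with the highest mean counts over the series, and they cover only that part of the annotation. Separately, 71 loci, some of them also among the 672, were matched to metal transporter and phytosiderophore genes named in the study. No sequence is shown, since the sources used here hold none for these loci.

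Between HD and 12 DAA, 755 loci were differentially expressed (DE) in the double mutant, 384 of them higher and 371 lower at 12 DAA. A locus was DE when it passed all 4 tests of the study's rule, namely adjusted *P* ≤0.01 in both edgeR and DESeq2, no overlap between the 4 HD and the 4 12 DAA values (the exact Mann-Whitney-Wilcoxon test at *P* ≤0.05), and a comparison of the means at *P* ≤0.01. This was 1.11% of the loci tested, 0.562% higher and 0.543% lower. The log2 fold changes (12 DAA over HD, from edgeR) of the DE loci had a median of 1.59 among those that were higher and -1.45 among those that were lower, and none was smaller in size than 0.70, while the median over all loci was 0.03. In all, 131 DE loci were higher by more than 2 on the log2 scale and 83 lower by more than 2. edgeR alone called 1135 loci, of which 374 failed only the comparison of the means. Fewer cells of a type and less RNA per cell cannot be told apart in whole leaves, here or in what follows.

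**Figure D1:**
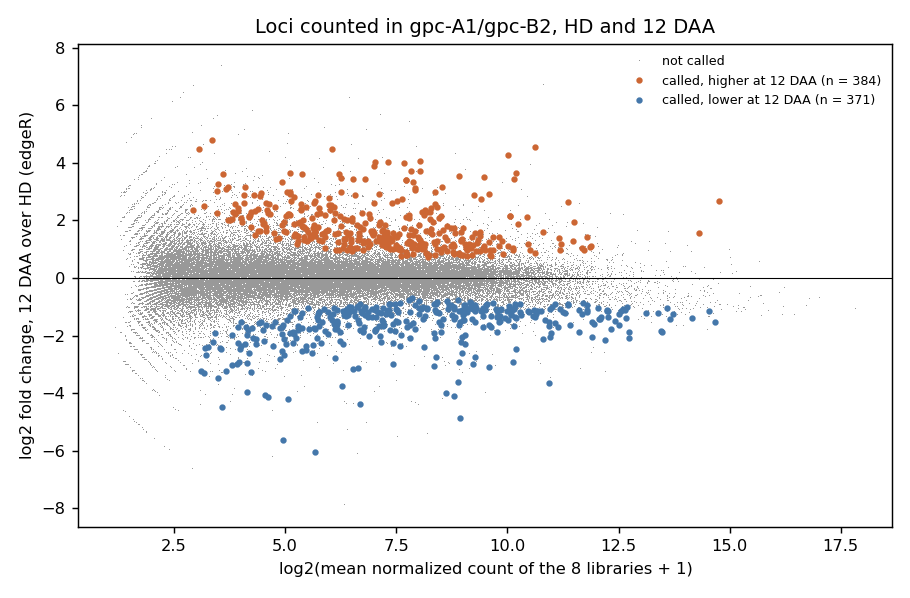
Log2 fold change from HD to 12 DAA in the double mutant (vertical axis) against the mean level over the 8 libraries (horizontal axis, log2 of the normalized count plus 1), 1 point per locus. The 384 higher (orange) and 371 lower (blue) DE loci both reach high levels, and above 1000 normalized counts 28 were higher and 84 lower.

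The balance of the directions moved with the level of the loci. Among the 3317 loci with a mean above 1000 normalized counts, 3.38% were DE, and 84 of these were lower against 28 that were higher (2.53% and 0.844% of the loci). Between 20 and 200 normalized counts the higher loci were the more frequent, with 64 against 44 from 20 to 50 and 133 against 104 from 50 to 200. None of the 7791 loci with a mean of 5 or less was called. The A and B genomes had similar shares, with 382 of 32666 loci DE on A chromosomes (1.17%) and 373 of 35641 on B chromosomes (1.05%). Among chromosome arms the share ranged from 0.490% on 7BL to 1.71% on 4AS. Of the 19 contigs that held more than 1 DE locus, 18 had theirs changed in the same direction.

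The number of DE loci and their direction depended on single libraries. Without replicate 1 of 12 DAA, 822 loci were DE, of which 264 were higher and 558 lower. Without replicates 2, 3 and 4 of 12 DAA the counts were 459, 201 and 154, and without replicates 2, 3 and 4 of HD they were 184, 619 and 240. Without replicate 1 of HD fewer than 184 were DE, 45 of them lower. The share of higher loci ranged from 32.1% without replicate 1 of 12 DAA to 77.7% without replicate 2 of HD. The 9 libraries of a replicate number were pooled and sequenced in the same set of lanes, and with that number as a block in edgeR and DESeq2 179 loci remained DE (0.262% of those tested; 119 higher and 60 lower). All 179 were among the 755, and the other DE loci kept their direction and all had a blocked edgeR adjusted P of 0.05 or less. There were 60 loci, 37 higher and 23 lower, that were DE with all 8 libraries and in each of the 8 fits that left 1 out.

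**Figure D2:**
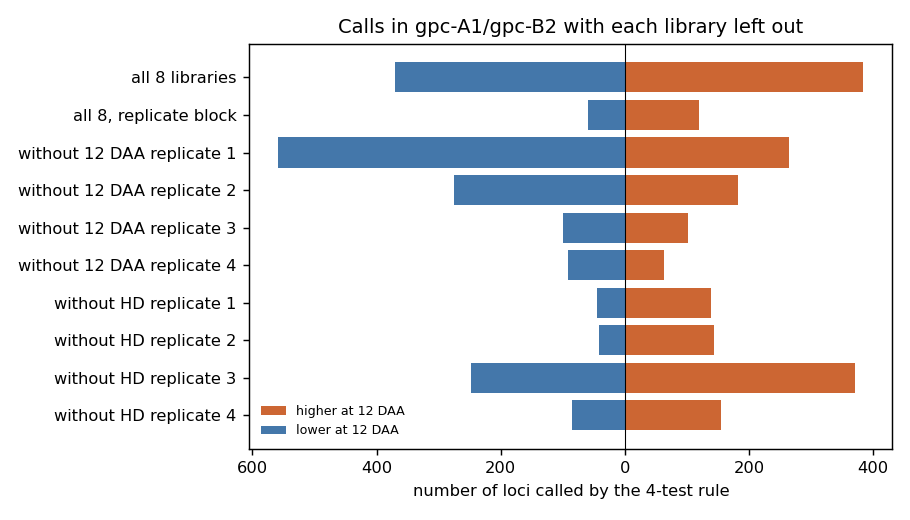
Number of loci DE between HD and 12 DAA (horizontal axis), higher to the right and lower to the left, with all 8 libraries, with the replicate block, and with each library left out. Leaving out replicate 1 of 12 DAA gave 558 lower and 264 higher loci, and leaving out replicate 2 of HD 41 lower and 143 higher ones.

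The mRNAs of the photosynthetic machinery were lower at 12 DAA, mostly without passing all 4 tests. Of 62 loci of light harvesting and the photosystems, 60 had a log2 fold change below 0 and in 57 the groups did not overlap with lower values at 12 DAA (7.43% of all loci tested), with a median of -1.02. The 62 loci together took 7.90% to 9.10% of the normalized counts at HD and 7.11%, 3.54%, 3.90% and 5.32% in replicates 1 to 4 of 12 DAA. Only 3 passed all 4 tests, none of them with the replicate block (edgeR adjusted P 0.0114 to 0.0273), although without replicate 1 of 12 DAA, which kept the highest level, 24 did. In the other 7 fits with 1 library left out, 1 to 4 loci were DE. Cytochrome b6-f complex subunit 7, part of the complex that passes electrons between the photosystems (5BL contig 10904733, 4558-5568), had 9411, 9874, 8264 and 8046 normalized counts in replicates 1 to 4 at HD and 3027, 2235, 2839 and 3334 at 12 DAA. It was 3.08-fold lower (log2 fold change -1.62, SE 0.18, edgeR adjusted *P* = 0.00106) and was DE in each of the 8 fits with 1 library left out. The thylakoid lumenal 29 kDa protein, a relative of ascorbate peroxidases (2AL contig 6330236, 2197-5332), ran from 5201 to 7653 at HD and 1456 to 3186 at 12 DAA (log2 fold change -1.44, SE 0.25, edgeR adjusted *P* = 0.00823). The photosystem II 22 kDa protein, which takes part in the dissipation of excess light (3AL contig 4262336, 1098-2292), ran from 6829 to 9518 at HD and 3021 to 4667 at 12 DAA (log2 fold change -1.16, SE 0.20, edgeR adjusted *P* = 0.00851). None of the 17 chlorophyll a-b binding loci passed all 4 tests with the 8 libraries, but all 17 had log2 fold changes below 0, between -2.18 and -0.73, and 7 were DE without replicate 1 of 12 DAA.

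Rubisco and Calvin cycle loci were lower as well. Of 40 loci, 7 were DE and lower and none higher, 39 had a log2 fold change below 0, and the median was -1.06. Their sum was 6.29% to 8.11% of the normalized counts at HD and 5.31%, 2.72%, 3.85% and 4.81% in the 4 replicates of 12 DAA. Reads shared by near-identical copies, as in the family of the Rubisco small subunit, were dropped, which lowers their counts. Of the 7 DE loci, 6 were of this subunit, of which 10 loci were measured. The one with the largest change, on 2BS (2BS contig 5229108, 1864-3483), had 7573, 9990.3, 6541 and 6562 normalized counts at HD and 2605, 713, 1665 and 1889.7 at 12 DAA (log2 fold change -2.14, SE 0.34, edgeR adjusted *P* = 0.00591). Another 2BS locus (2BS contig 5246648, 11318-12750) had 17167, 22742, 19023 and 11394 at HD and 6178, 2846, 4847 and 5474 at 12 DAA (log2 fold change -1.85, SE 0.28, edgeR adjusted *P* = 0.00534), and the 2AS locus (2AS contig 5298517, 2415-3227) 9356, 9296, 7523 and 5431 at HD and 2500.3, 1660.5, 2347 and 2748 at 12 DAA (log2 fold change -1.76, SE 0.23, edgeR adjusted *P* = 0.00242). In these 3 loci the groups were far apart, and the highest 12 DAA value of the first pair was that of replicate 1. The most abundant of the DE small subunit loci, on 2AS (2AS contig 5235651, 1887-3465), went from 39080.0 ± 7918 to 13475 ± 2531 (SD, n = 4), and an abundant locus on 2BS (2BS contig 5243603, 1339-2746) from 18876 ± 3064 to 6979.9 ± 1812 (SD, n = 4). The seventh locus, described as a chloroplast fructose phosphate enzyme and named after its values were seen (4AS contig 5951951, 3208-5489), had the smallest change (log2 fold change -0.88, SE 0.15, edgeR adjusted *P* = 0.00811). No Rubisco or Calvin cycle locus was DE with the replicate block (edgeR adjusted P 0.0185 to 0.0334 for the 7), and with 1 library left out 0 to 11 were, the 11 without replicate 1 of 12 DAA. Set beside the 2.53% of loci above 1000 counts that were DE and lower, 7 of 40 was 17.5% and 3 of 62 was 4.84%. The share of normalized counts of the list did not overlap between the 2 times.

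**Figure D3:**
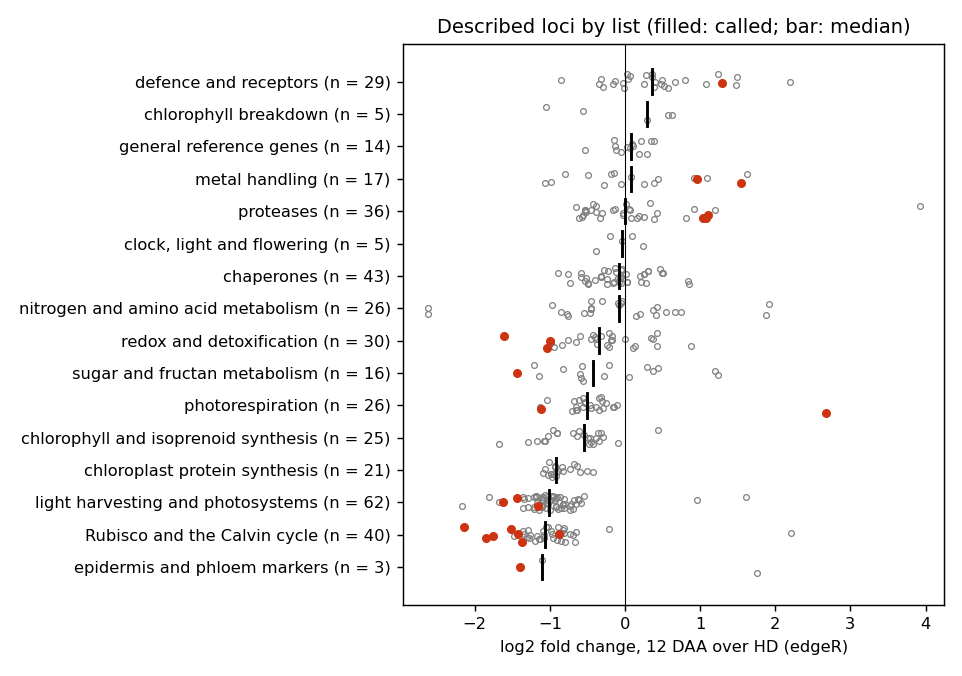
Log2 fold change from HD to 12 DAA in the double mutant (horizontal axis) of the described loci in 16 lists (vertical axis), with DE loci filled and a bar at each median. The photosynthetic lists lie to the left, with medians of -1.06 and -1.02, and the reference genes at 0.08.

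Most other chloroplast lists had negative medians with few or no calls. All 21 loci of chloroplast protein synthesis had log2 fold changes below 0 (median -0.92), and in 17 the groups did not overlap with lower values at 12 DAA (7.43% of all loci), but none was DE. Of 25 loci of chlorophyll and isoprenoid synthesis, 24 were below 0 (median -0.54) and none was DE. The 5 loci of chlorophyll breakdown had a median of 0.29 and none was DE. In all 5 the groups did not overlap (15.1% of all loci), with 3 higher and 2 lower at 12 DAA. Their summed share of the normalized counts was 0.186% to 0.206% at HD and 0.121% to 0.174% at 12 DAA. Among the 30 redox loci 3 were DE, all lower, where 0.543% of all loci and 2.53% of loci above 1000 counts were. Chloroplastic L-ascorbate peroxidase, which removes hydrogen peroxide (6BL contig 4266248, 1-3197), ran from 5208 to 7171 at HD and 1358 to 2725 at 12 DAA (log2 fold change -1.61, SE 0.23, edgeR adjusted *P* = 0.00393). Thioredoxin peroxidase (2AL contig 6339677, 9928-13104; log2 fold change -0.998, SE 0.17, edgeR adjusted *P* = 0.00899) and lactoylglutathione lyase, which detoxifies methylglyoxal (5AL contig 2750356, 1-2229; log2 fold change -1.04, SE 0.18, edgeR adjusted *P* = 0.00865), were lower too. Phosphoglycolate phosphatase, the first enzyme of photorespiration, was the 1 photorespiration locus of 26 that was DE and lower (2BL contig 7947945, 3166-6264; log2 fold change -1.11, SE 0.18, edgeR adjusted *P* = 0.00597), where 0.543% of all loci and 2.53% of loci above 1000 counts were. None of these loci was DE with the replicate block (edgeR adjusted P 0.0201 to 0.0400 for the redox loci and 0.0245 for the phosphatase).

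The lower DE loci outside the lists included more chloroplast proteins. The locus with the largest change was described as a chloroplast Tic protein, a part of the import machinery of the inner envelope (5BL contig 10866110, 23976-25433), with 11019, 14848, 10421 and 7731 normalized counts at HD and 4030.3, 1555, 1909 and 2806 at 12 DAA. It was 4.23-fold lower (log2 fold change -2.08, SE 0.31, edgeR adjusted *P* = 0.00484). Glucose-6-phosphate 1-epimerase (5BL contig 10810670, 5919-9081; log2 fold change -1.54, SE 0.19, edgeR adjusted *P* = 0.00175) was DE in all 8 fits with 1 library left out. Plastid omega-3 fatty acid desaturase, which makes the trienoic fatty acids of thylakoid lipids (2BS contig 5200682, 6276-9820; log2 fold change -1.49, SE 0.24, edgeR adjusted *P* = 0.00648), a chloroplast inner envelope protein (1BL contig 3892080, 2793-9104; log2 fold change -1.37, SE 0.19, edgeR adjusted *P* = 0.00353) and epoxide hydrolase 3 (3B contig 10496056, 4769-12817; log2 fold change -1.26, SE 0.21, edgeR adjusted *P* = 0.00694) followed. Among the most abundant were the chloroplast stem-loop binding protein of 41 kDa, an RNA-binding protein of the plastid (6AS contig 4377632, 6547-8739), at 18956 ± 1569 and 7970.1 ± 453.9 (SD, n = 4), and a GDP-mannose transporter (5BL contig 10866931, 1-3975), at 16822 ± 1392 and 8083 ± 691 (SD, n = 4). In both, the 4 values of each time lay close together (16805 to 20497 at HD and 7328 to 8344 at 12 DAA for the first). These 7 loci were not DE with the replicate block (edgeR adjusted P 0.0135 to 0.0365).

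Loci with roles in other cells of the leaf and in sugar movement were few. A lipid transfer protein, of a family found in the epidermis (3B contig 10592010, 55-1200), was DE, with 22539, 23612, 30889 and 29081 at HD and 12005, 10556, 9020.0 and 8438 at 12 DAA (log2 fold change -1.39, SE 0.21, edgeR adjusted *P* = 0.0047). A second one (5BL contig 10897886, 1023-2528; log2 fold change -1.11, SE 0.24, edgeR adjusted *P* = 0.0205) did not pass edgeR's threshold, and fatty acyl reductase 3, which makes alcohols of the leaf wax (7BL contig 6748117, 8674-11423), had 3215, 1821, 889.6 and 1665 at HD and 3808, 11006, 5915 and 4555 at 12 DAA (log2 fold change 1.75, SE 0.41, edgeR adjusted *P* = 0.03). These 3 markers of the epidermis were all present in every library, and their sum was 0.134% to 0.181% of the normalized counts at HD and 0.0825% to 0.134% at 12 DAA. The phloem marker SWEET13, a sucrose exporter (6AL contig 5830384, 16213-18218), had 4533, 6595, 4432 and 3582 at HD and 2400.3, 1872, 2002 and 1872 at 12 DAA and failed only the comparison of the means (log2 fold change -1.22, SE 0.20, edgeR adjusted *P* = 0.00769). The locus described as ruptured pollen grain 1, another SWEET sugar transporter (6AL contig 5752894, 10763-12873), was DE (4699 to 7358 at HD and 1619.6 to 3044 at 12 DAA; log2 fold change -1.44, SE 0.23, edgeR adjusted *P* = 0.00585). The part of changing cell types in the photosynthetic result was not tested. Neither the lipid transfer protein nor the SWEET locus was DE with the replicate block (edgeR adjusted P 0.0304 and 0.0142).

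Of the 672 described loci 39 were DE (5.80%, against 3.38% of the loci above 1000 counts), and 9 of these were higher at 12 DAA. Catalase isozyme 2, which breaks down hydrogen peroxide (6AS contig 4376419, 3350-6368), was the most abundant of them and had the largest change, with 6899.8, 8246, 7219 and 7738 normalized counts in replicates 1 to 4 at HD and 45674, 52707, 41134 and 51515 at 12 DAA. It was 6.41-fold higher (log2 fold change 2.68, SE 0.20, edgeR adjusted *P* = 0.000114). The 2 groups were separated by a wide gap, and the locus was DE with the replicate block (edgeR adjusted *P* = 0.00338) and in all 8 fits with 1 library left out. It was also the 1 locus of the photorespiration list that was higher. At 22 DAA its mean in the double mutant was 75994 ± 13646 (SD, n = 4).

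The GPC genes themselves were higher at 12 DAA. The locus described as the NAC factor NAM-B1, on 6AS (6AS contig 4397602, 15266-17686), had 535, 663, 884 and 833 at HD and 4916, 4341, 4569 and 4373 at 12 DAA (log2 fold change 2.65, SE 0.19, edgeR adjusted *P* = 0.000113), 6.3-fold higher. The description names another copy, but the study places GPC1 on short arms of the chromosome group of 6AS. The arm therefore points to *GPC-A1*, the A-genome copy. *GPC-A2*, at 2618 to 5026 of a 2AS contig, had 16.6, 26.6, 28.8 and 45.2 at HD and 518, 648, 382.6 and 418 at 12 DAA, 16.9-fold higher (log2 fold change 4.08, SE 0.29, edgeR adjusted *P* = 0.000105), and 652 ± 20.3 at 22 DAA (SD, n = 4). In both loci the replicates of each time lay close to each other beside the gap between the times. Both were DE with the replicate block (edgeR adjusted *P* = 0.00269 and 0.00235). The NAM-B1 locus was DE in all 8 fits with 1 library left out, and *GPC-A2* in 5, being lost without replicate 1, 3 or 4 of 12 DAA, while its log2 fold change stayed between 3.88 and 4.37 over the 8 fits. Neither response differed from that of WT beyond the threshold: the difference in log2 fold change, double mutant minus WT, was -0.02 (SE 0.27, edgeR adjusted *P* = 0.991) for the first and 0.34 (SE 0.33, edgeR adjusted *P* = 0.742) for the second. The counts do not measure whether the mRNA of the first encodes a whole protein. The study reports that it found the expected *gpc-A1* stop mutation in reads of the mutant genotypes.

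**Figure D4:**
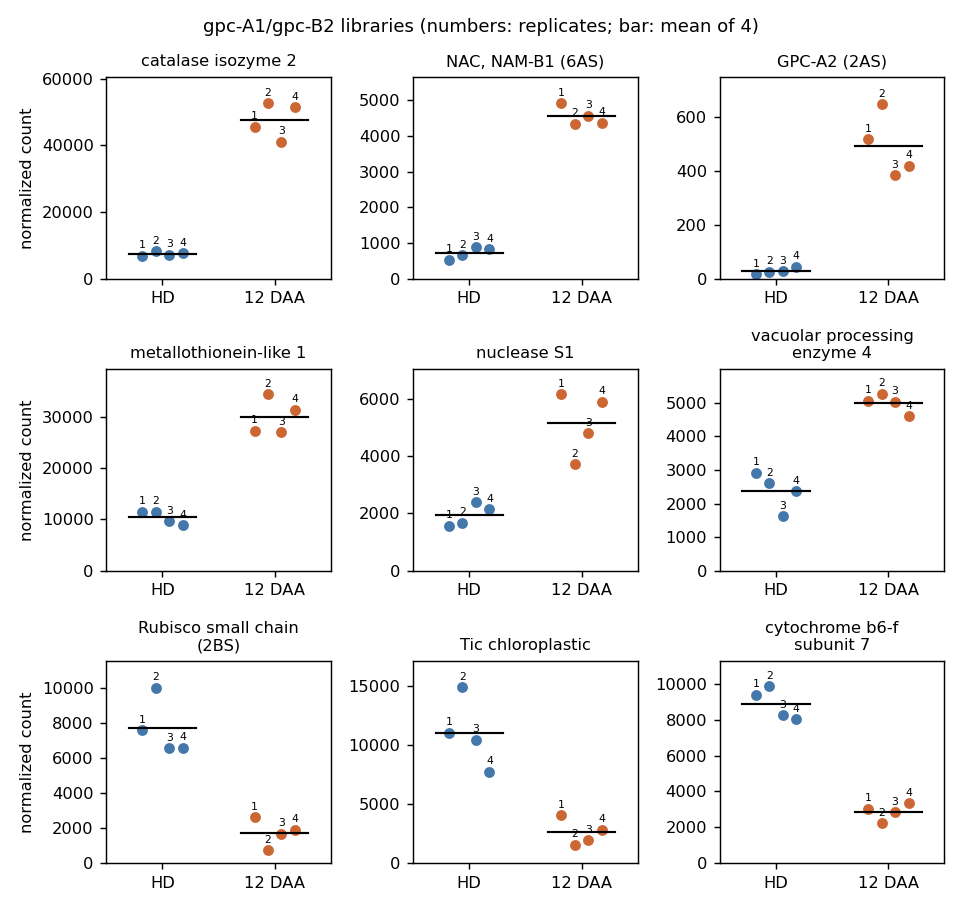
Normalized counts (vertical axes, from 0) of 9 loci in the 4 HD and the 4 12 DAA libraries of the double mutant, with the replicate number at each point and a bar at the mean. In all 9 panels the values of the 2 times do not overlap, and catalase isozyme 2 rises from 7526 to 47758.

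Metal-binding, degradative and defence loci made up the other higher ones. Metallothionein-like protein 1, a small cysteine-rich protein that binds metals (4AL contig 7115854, 2051-2904), had 11535, 11458, 9707 and 8818 at HD and 27273, 34366, 26950.2 and 31313 at 12 DAA (log2 fold change 1.55, SE 0.20, edgeR adjusted *P* = 0.00209). Metallothionein type 3 (3AS contig 3303945, 2360-3723) had 2470.3, 2554, 2041 and 2231 at HD and 5194, 4653, 3897 and 4213 at 12 DAA (log2 fold change 0.96, SE 0.16, edgeR adjusted *P* = 0.00764). These were the 2 DE loci among 17 of metal handling (11.8%, against 0.562% of all loci and 0.844% of loci above 1000 counts that were DE and higher), whose median was 0.08. Of 36 proteases, 3 were DE (8.33%), all higher, against 0.562% of all loci and 0.844% of loci above 1000 counts, beside a median of -0.01 for the list. The list as a whole had no single direction. In 8 of the 36 the groups did not overlap with higher values at 12 DAA and in 9 with lower ones, against 7.72% and 7.43% of all loci. Vacuolar processing enzyme 4, a cysteine protease that matures other vacuolar proteins (3B contig 10457438, 4050-9793), had 2923, 2608, 1625 and 2363 at HD and 5061, 5269, 5030.4 and 4589.7 at 12 DAA (log2 fold change 1.08, SE 0.19, edgeR adjusted *P* = 0.00987). Aspartic proteinases on 1BL (1BL contig 3906802, 7817-13618; log2 fold change 1.11, SE 0.19, edgeR adjusted *P* = 0.00759) and 1AL (1AL contig 3885764, 9943-15907; log2 fold change 1.04, SE 0.16, edgeR adjusted *P* = 0.00572) were DE as well. Nuclease S1, of an enzyme class that degrades nucleic acids in senescing leaves (3B contig 10770866, 1-12640), had 1572, 1675, 2379.9 and 2143 at HD and 6154, 3715, 4791 and 5883 at 12 DAA (log2 fold change 1.41, SE 0.21, edgeR adjusted *P* = 0.00502). Of 29 loci of defence and receptors, 21 had log2 fold changes above 0, beside 35837 of all 68307 loci. The 1 that was DE (3.45%, against 0.562% of all loci and 0.844% of loci above 1000 counts) was described as hypersensitive response protein (4BL contig 6973512, 3778-8889; log2 fold change 1.29, SE 0.16, edgeR adjusted *P* = 0.00194). All 7 of these loci lost the call with the replicate block (edgeR adjusted P 0.0112 to 0.0297), and metallothionein type 3, vacuolar processing enzyme 4 and the 1BL aspartic proteinase were not DE in any of the 8 fits that left out a library, with log2 fold changes that stayed within 0.87 to 1.195.

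Several described loci had larger log2 fold changes without passing all 4 tests, and they were picked after their values were seen. Ribose-phosphate pyrophosphokinase (2AL contig 6368208, 1-849), which makes the sugar phosphate for nucleotide synthesis, had 34.2, 61.8, 15.5 and 21 at HD and 853, 1873, 9089 and 2189.7 at 12 DAA (log2 fold change 6.72, SE 0.81, edgeR adjusted *P* = 0.00163), with replicate 3 far above the rest. Serine carboxypeptidase-like 18 (5BL contig 10923998, 6245-8555) had 146, 152, 212 and 212 at HD and 1405, 3367, 3289 and 2808 at 12 DAA (log2 fold change 3.92, SE 0.30, edgeR adjusted *P* = 0.000114), with replicate 1 of 12 DAA the lowest of its group. A Rubisco activase locus on 4BS (4BS contig 4910205, 5859-9427) had higher values at 12 DAA, unlike the rest of its list, with 1704, 2359, 1933 and 1252 at HD and 12962, 4788, 3885 and 11541 at 12 DAA (log2 fold change 2.21, SE 0.39, edgeR adjusted *P* = 0.00927). A locus described as an oxoglutarate-dependent 3-dioxygenase (2AL contig 6438087, 11711-18453) had 1288, 744, 766 and 843 at HD and 2234, 11472, 3776 and 3955 at 12 DAA (log2 fold change 2.58, SE 0.46, edgeR adjusted *P* = 0.00942). In each of these 4 loci the spread at 12 DAA was wide although the groups did not overlap. Both loci of adenylylsulfate reductase, the enzyme of sulfate reduction in the chloroplast, had log2 fold changes of -2.62, with 9531, 6465, 1043 and 9027 at HD and 1392, 1145, 658 and 989 at 12 DAA in the first (2AS contig 5189528, 6865-8845; edgeR adjusted *P* = 0.0182). The groups overlapped there through replicate 3 of HD, which was low in both loci.

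Lists with no DE member included nitrogen and amino acid metabolism (26 loci, median -0.08), chaperones (43 loci, median -0.08) and the 14 general reference genes (median 0.08, range -0.53 to 0.38). The 5 loci of clock, light and flowering had no DE member either, and in none were the groups apart. Flowering locus T, the mobile signal of flowering (7AS contig 4253310, 6862-8618), had 4872, 5912, 5048 and 5588 at HD and 5810.4, 6498, 5427 and 4823 at 12 DAA (log2 fold change 0.09). Circadian clock associated 1, a dawn-phased clock gene (7AL contig 4552600, 3748-15360), was uneven within each time, with 5008, 5046, 493.5 and 3240.3 at HD and 4186, 684, 1426 and 4197 at 12 DAA (log2 fold change -0.38, SE 0.67). Its low values were those of replicate 3 of HD and replicates 2 and 3 of 12 DAA. Cryptochrome 1b (log2 fold change -0.04), phototropin 2 (-0.20) and the clock regulator PRR95 (0.24) were not DE either. The sugar and fructan list held 16 loci, with the SWEET locus above as its 1 DE member (6.25%, against 1.11% of all loci and 3.38% of loci above 1000 counts).

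Among 71 loci matched to metal transporter and phytosiderophore genes, 1 was DE (1.41%), near the share of all loci (1.11%). In 12 the groups were apart and higher and in 10 apart and lower at 12 DAA, against 7.72% and 7.43% of all loci. The DE locus was *TaNAAT2* on 1AL, an aminotransferase of phytosiderophore synthesis (1AL contig 3883773, 4872-7692), with 128, 210.3, 138.3 and 201 at HD and 41.9, 48.3, 54.8 and 36.5 at 12 DAA. It was 3.69-fold lower (log2 fold change -1.88, SE 0.22, edgeR adjusted *P* = 0.00128) and stayed DE with the replicate block (edgeR adjusted *P* = 0.00969), but not when any 1 HD library was left out. Its homoeolog, the copy of the gene on 1BL (1BL contig 3814337, 1126-3797), had 168, 444, 276.6 and 294 at HD and 37.2, 37.3, 67.3 and 41 at 12 DAA (log2 fold change -2.69, SE 0.31, edgeR adjusted *P* = 0.00117) and failed the comparison of the means. *TaNAAT1* on 1AL (1AL contig 3876687, 7368-11125) had 32, 98, 91.8 and 66.2 at HD and 11.6, 17, 18.7 and 7.75 at 12 DAA (log2 fold change -2.36, SE 0.38, edgeR adjusted *P* = 0.00675) and failed the same test. In all 3 NAAT loci every 12 DAA value was below every HD value, and at 22 DAA their means were 34.4 ± 3.55, 15.1 ± 3.93 and 9.32 ± 3.91 (SD, n = 4). The 2 matched loci of *TaNAS3*, a nicotianamine synthase, had log2 fold changes of -0.47 and -0.45 and the groups overlapped.

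None of the 22 matched ZIP loci, of 12 genes, was DE, and their log2 fold changes ran from -2.35 to 3.22 with a median of -0.22. *TaZIP3* was the lowest on both genomes. Its 2BL locus (2BL contig 8070141, 3788-6398) had 77.3, 98.9, 98.5 and 94.6 at HD and 10.5, 39.8, 26.2 and 8.86 at 12 DAA (log2 fold change -2.06, SE 0.38, edgeR adjusted *P* = 0.0117), and its 2AL locus (2AL contig 1213723, 1-2131) 27.6, 50.4, 108.4 and 55.7 at HD and 8.14, 22, 11.2 and 3.32 at 12 DAA (log2 fold change -2.35, SE 0.51, edgeR adjusted *P* = 0.0224). In both the times did not overlap. *TaZIP10* had a log2 fold change of -1.02 on 7AL and of -1.02 on 7BL (edgeR adjusted *P* = 0.0291 and 0.0214). *TaZIP10-like1* had positive values. Its 7BL locus (7BL contig 6688105, 895-1586) had 2.21, 43.8, 5.53 and 3.15 at HD and 116.3, 85.6, 196 and 131 at 12 DAA (log2 fold change 3.22, SE 0.67, edgeR adjusted *P* = 0.0184), with replicate 2 of HD far above the other 3, and its 7AL locus had 3.31, 34.2, 13.3 and 16.8 at HD and 38.4, 44.1, 61.1 and 45.4 at 12 DAA (log2 fold change 1.46, SE 0.45, edgeR adjusted *P* = 0.0796). *TaZIP13-like3* had -1.37 on 2BL and -0.41 on 2AL, and *TaZIP13-like2* -0.47 on 2AS and -0.43 on 2BS. *TaZIP5* on 4BL was at 19.7 ± 12 and 6.57 ± 5.98 (SD, n = 4). The log2 fold changes of both loci of *TaZIP6*, *TaZIP7*, *TaZIP11*, *TaZIP14* and *TaZIP15* and of *TaZIP2*-like lay between -0.55 and 0.44.

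Other metal transporters were likewise below the threshold of the rule. *TaHMA2*, a zinc-exporting ATPase, had higher values at 12 DAA on both genomes, with 159, 126, 123 and 182.8 at HD and 363, 865, 589.5 and 436 at 12 DAA on 7AL (7AL contig 4557170, 1989-6002; log2 fold change 1.95, SE 0.27, edgeR adjusted *P* = 0.00319) and 193.2, 127.5, 149 and 217 at HD and 347, 1061, 678.02 and 395 at 12 DAA on 7BL (7BL contig 6716319, 315-2193; log2 fold change 1.87, SE 0.34, edgeR adjusted *P* = 0.0107). Replicates 2 and 3 of 12 DAA were the highest in each, and the groups did not overlap. *TaHMA2-like* on 7AL was at 13 ± 7.7 and 28.3 ± 8.26 (SD, n = 4). *TaNRAMP2*, of a family of divalent metal carriers, had log2 fold changes of 0.99 on 4AS and 1.06 on 4BL (edgeR adjusted *P* = 0.0291 and 0.033). *TaFRO1*, a ferric reductase and the most abundant of the matched genes, had 34304, 35714, 41464 and 25467 at HD and 34359, 7328, 11404 and 25283 at 12 DAA on 2BL (log2 fold change -0.79, SE 0.42, edgeR adjusted *P* = 0.298), and on 2AL its log2 fold change was -0.49. Replicates 2 and 3 of 12 DAA were the low ones on 2BL, and replicate 1 lay within the HD range. *TaVIT2* on 5BL, an iron transporter of the vacuole, had -0.79 (SE 0.48). Of the 28 genes with a matched locus on each genome, 22 had log2 fold changes of the same sign in both copies.

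The loci that were DE in the double mutant mostly moved in the same direction in the other genotypes. Of the 384 that were higher, 367 had a higher mean at 12 DAA than at HD in WT and 379 in *gpc-A1*, with a median log2 ratio of the means (plus 1) of 1.14 and 1.203 beside 1.54 in the double mutant. Of the 371 that were lower, 360 had a lower mean in WT and 365 in *gpc-A1*, with medians of -0.76 and -0.75 beside -1.45. The loci were chosen for their change in the double mutant, so its own medians are no measure of a stronger response. Tested directly, the change differed between WT and the double mutant for 13 of the 755 loci (1.72%), against 119 of all 72377 loci tested (0.164%; edgeR interaction term, adjusted *P* ≤0.01). Both shares rest on the same double mutant libraries, so the first is not independent of how the 755 were chosen.

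Of the 119 loci, 51 had the more positive change in the double mutant and 68 the more negative one (0.0705% and 0.0940%). This balance depended on the fit. Over all 9 groups 11 of 68 loci had the more positive change, with the replicate block 46 of 120. Among the 119, the most on any arm were 17 on 1BL, which held 2782 of the 68307 loci tested in the double mutant. On 3B, with 6168 of those, there were 12 of the 119. In all, 61 of the 118 that could also be tested in the double mutant changed by less than 1 on the log2 scale there. Among the 71 matched loci 5 passed, all with the more negative change in the double mutant. *TaZIP3* on 2AL was 20.5 ± 8.6 at HD and 114.98 ± 13.7 at 12 DAA in WT, and 60.5 ± 34.2 against 11.2 ± 7.93 with both mutations (SD, n = 4), a difference of -4.83 (SE 0.60, edgeR adjusted *P* = 0.000457). *TaZIP13-like2* on 2BS was 78.5 ± 61.7 and 915.6 ± 202 in WT (SD, n = 4). The double mutant had 129.4 ± 54.2 and 95.7 ± 34.2, a difference of -3.99 (SE 0.58, edgeR adjusted *P* = 0.00219). *TaNAAT2* on 1AL had a difference of -3.06 (SE 0.43, edgeR adjusted *P* = 0.00158). These 3 passed in each of the 16 fits that left out 1 library. *TaNAAT2* on 1BL (-3.98, SE 0.63, edgeR adjusted *P* = 0.00449) passed in 8 of the 16, and *TaZIP3* on 2BL (-3.17, SE 0.53, edgeR adjusted *P* = 0.00811) in 2 of the 16 and not with the replicate block (adjusted *P* = 0.0124). In all 5 the WT mean was higher at 12 DAA than at HD and the mean of the double mutant lower. In *gpc-A1*, *TaNAAT2* on 1BL also fell, from 73.7 to 119 at HD to 38.1 to 48.9 at 12 DAA. At the other loci its HD and 12 DAA values overlapped, including *TaZIP13-like2* on 2BS (36.2 to 51.9 and 51.3 to 118). For none of the 5 did the response differ between *gpc-A1* and the double mutant beyond the threshold.

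**Figure D5:**
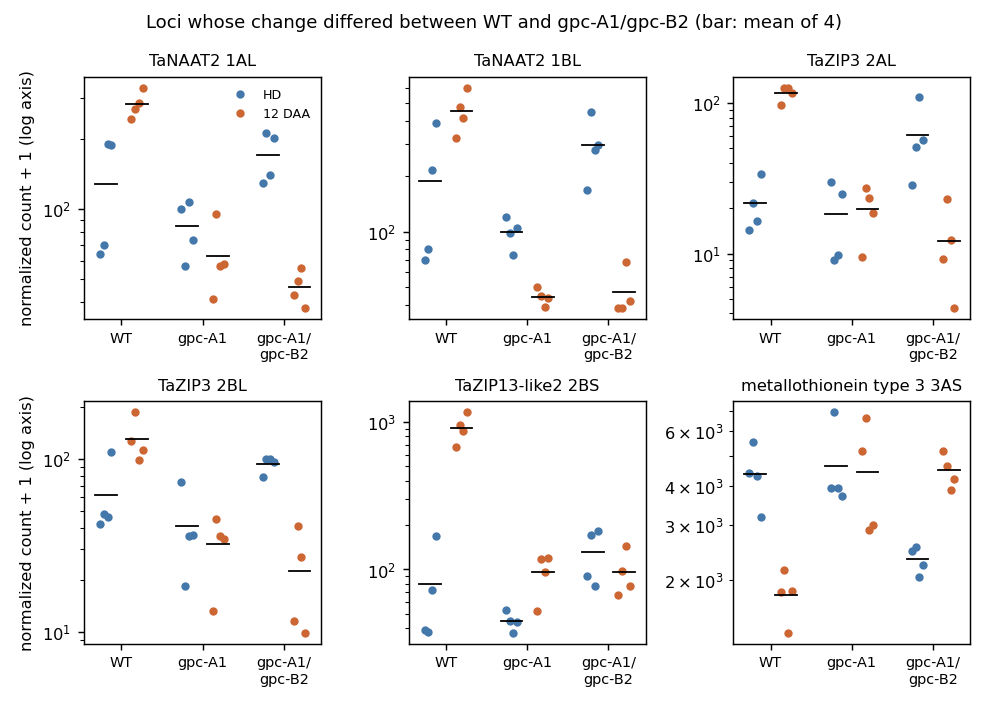
Normalized counts plus 1 (vertical axes, logarithmic) of 6 loci in the HD (blue) and 12 DAA (orange) libraries of WT, gpc-A1 and the double mutant, with a bar at each mean. In WT the first 5 are higher at 12 DAA and metallothionein type 3 is lower, from 4366 to 1791, while the means of the double mutant go the other way.

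The described loci among the 119 were 2, both with the more positive change in the double mutant. Metallothionein type 3 was 4366 ± 969.3 at HD and 1791 ± 331.6 at 12 DAA in WT and 4628 ± 1517.2 and 4425 ± 1814 in *gpc-A1* (SD, n = 4), beside its rise in the double mutant. The difference from WT was 2.23 (SE 0.26, edgeR adjusted *P* = 0.000249) and passed in all 16 fits with 1 library left out. A thioredoxin h-type locus on 1BL (1BL contig 3850705, 3555-11790) was high in some libraries and near 0 in others of the same group. In replicates 1 to 4 of WT it had 5497, 4921, 8.46 and 4244 at HD, 3.9, 2.67, 10.1 and 6.83 at 12 DAA and 4713, 1.68, 5129 and 2.74 at 22 DAA. In *gpc-A1* it had 11.4, 9.14, 5388 and 4336 at HD and 9.78, 4.37, 7.41 and 9.84 at 12 DAA, and in the double mutant 3673 to 5693 at HD and 3964 to 6929 at 12 DAA. High and near-0 libraries stood side by side in WT at HD and 22 DAA and in *gpc-A1* at HD. Of the groups in the comparison with WT, only WT at HD was mixed. WT at 12 DAA was near 0 and the double mutant high in every library. The fitted difference of 9.37 (SE 1.36, edgeR adjusted *P* = 0.00208) therefore rests in part on a mixed group. It was lost with the replicate block (adjusted *P* = 0.0138) and without replicate 2 or 4 of WT at 12 DAA.

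The double mutant and *gpc-A1* differ by the *GPC-B2* mutation, and their responses differed at 1 of 70391 loci (0.00142%; edgeR interaction term, adjusted *P* ≤0.01). Replicate 1 of *gpc-A1* at HD has a title that names *gpc-A1* and a genotype field that reads wild type, and was used by its title. The count was 1 without it too. The study reports that it checked the genotype of each sample from its reads, which the counts cannot repeat. At an unadjusted P under 0.05 there were 3484 loci, near the share that chance alone gives at this threshold, and DESeq2 called 20. Small differences may have been missed: for the interaction with WT, 3 of 100 simulated 2-fold changes were recovered. No simulation was run for *gpc-A1*. The 1 locus has no description and was named after its values were seen (4BL contig 6992123, 2050-7010). It had 1241, 800.1, 813 and 638 normalized counts in the 4 HD libraries of the double mutant and 82.6, 68.7, 66.1 and 65.3 at 12 DAA (log2 fold change -3.61, SE 0.22, edgeR adjusted *P* = 5.81e-05). In *gpc-A1* it was 87.1 ± 7.16 and 64.4 ± 8.21 and in WT 85.1 ± 9.81 and 69.4 ± 9.82 (SD, n = 4), so that the HD leaves of the double mutant stood alone. The difference from *gpc-A1* was -3.20 (SE 0.26, edgeR adjusted *P* = 4e-05), and it passed in all 16 fits with 1 library left out.

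The undescribed DE loci with the largest changes, among those with a mean of 50 or more in the higher group, changed by more than the described DE loci. They were picked for the size of their change, and only loci with the highest mean counts have descriptions, so these sets are unlike. On 4AL (4AL contig 7112679, 3536-4877) a locus had 118, 62.8, 133 and 205 normalized counts at HD and 2431, 3223, 3258 and 3245 at 12 DAA, 23.7-fold higher (log2 fold change 4.56, SE 0.33, edgeR adjusted *P* = 0.000111), and was DE with the replicate block and in all 8 fits with 1 library left out. On 4BS (4BS contig 4869339, 2554-5189) another had 7.73, 2.85, 7.74 and 4.2 at HD and 108.2, 175, 84.8 and 131 at 12 DAA (log2 fold change 4.48, SE 0.35, edgeR adjusted *P* = 0.000114), and both were higher still at 22 DAA, at 5415 ± 1515 and 449 ± 159.7 (SD, n = 4). Among the lower loci, one on 3AS (3AS contig 3443437, 7902-8978) had 99.3, 65.6, 122 and 107 at HD and 3.49, 0, 0 and 2.21 at 12 DAA (log2 fold change -6.05, SE 0.52, edgeR adjusted *P* = 0.000197). One on 5AL (5AL contig 2810976, 870-2427) had 68.4, 70.4, 44.3 and 53.6 at HD and 2.33, 0.848, 0 and 1.11 at 12 DAA (log2 fold change -5.61, SE 0.42, edgeR adjusted *P* = 0.000114), and both were near 0 at 12 DAA, where the fitted fold change depends on very few reads. All 4 were DE with the replicate block. For none of the 4 did the difference in response from WT pass the threshold (edgeR adjusted P 0.0602 to 0.797), with the 4AL locus the nearest (difference 1.98, SE 0.43).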

How the data were processed

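RNA of single flag leaves was sequenced as 50-base single reads. The authors mapped reads with GSNAP to contigs of the A and B chromosome arms of Chinese Spring and used HTSeq to count the reads with 1 mapping position (the version of GSNAP is stated in the study's methods, that of HTSeq is not given in the sources used here). The deposited values are raw read counts, not normalized. Reads shared by near-identical copies or homoeologs were dropped, which lowers their counts, and coordinates are positions on the arm contigs as deposited.

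Loci where 2 or more libraries of either time held over 3 reads were tested with edgeR 4.0.16 (quasi-likelihood test, TMM factors), DESeq2 1.42.0 in place of the study's DESeq (both at a Benjamini-Hochberg adjusted *P* ≤0.01), an exact two-sided Mann-Whitney-Wilcoxon test (*P* ≤0.05, where the smallest value for 4 against 4 is 0.0286) and a comparison of 2 means with unequal variances (*P* ≤0.01). The last 2 used counts divided by median-of-ratios factors over 36 libraries, called normalized counts, which are not divided by locus length. Log2 fold changes and standard errors are edgeR's. With 1 library left out the smallest exact rank *P* is 0.0571, and the rank test was then taken as no overlap. Differences in response between genotypes were interaction terms in edgeR over 16 libraries. R 4.3.3, Python 3.11.15, pandas 2.3.3, numpy 2.4.6 and matplotlib 3.10.9 were used.

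According to the study's methods, the 9 libraries of a replicate number were indexed, pooled and sequenced in the same set of lanes, which is where the pairing comes from. Deviations from the group means of same-numbered HD and 12 DAA libraries had correlations of -0.15 to 0.02 across loci, and those of the 12 other pairs -0.16 to 0.24. Each library came from a separate leaf.

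The named loci were up to 3 DE members of each list and direction by size of change, all DE transporter loci and the main transporter families, the 5 most abundant described DE loci in each direction, up to 5 described DE loci in no list, the 2 undescribed DE loci with the largest changes in each direction (mean of 50 or more), GPC-A2 and NAM-B1, all clock loci, and up to 3 loci by difference in response from WT and from *gpc-A1*. Others are marked as chosen after their values were seen. Members and lists were chosen with earlier results of these data known. Descriptions came from the study's annotation, and of 114 transporter entries 71 were matched by arm and WT means, so that the matching used counts of WT but not of the mutants.

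On simulated counts for the 68307 loci, the 4-test rule recovered 7 of 100 loci changed 2-fold and 71 of 100 changed 4-fold, with 1 false call. For the interaction with WT (72377 loci) the numbers were 3 and 71 of 100, with 1 false call. In both, the changed loci were drawn only from those with a mean of 50 or more reads, so recovery at lower levels was not measured. Simulated counts were drawn independently at each locus, without deviations shared by many loci of a library. The false calls therefore do not measure errors that such deviations of whole libraries may cause. Alternatives were each tool alone, other size factors, other filters, a fit over all groups, the replicate block and leaving out each library.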

Additional observations from a re-analysis of the deposited data

Results flagged for a closer look

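Among 168 groups of 4 replicates checked at the named loci, 10 had 1 library far from the other 3 by Dixon's 95% criterion, where chance flags about 5% of groups. At 12 DAA in the double mutant, replicate 3 was the highest for TaNAAT2 on 1BL (67.3 normalized counts, others 37.2 to 41.0), TaZIP10 on 7AL (270.5, others 162 to 175), the 4BL hypersensitive response protein (4928, others 3677 to 3768) and the 2AL ribose-phosphate pyrophosphokinase (9089, others 853 to 2189.7). Replicate 1 was the lowest for the 1AL aspartic proteinase (3936, others 4466 to 4575) and the undescribed 4AL locus on contig 7112679 (2431, others 3223 to 3258), and replicate 2 the highest for the GDP-mannose transporter (9114, others 7680.5 to 7833). At HD, replicate 2 was the highest for TaZIP2-like on 6BS (83.7, others 50.4 to 54.1) and TaZIP10-like1 on 7BL (43.8, others 2.21 to 5.53), and replicate 3 for TaNRAMP2 on 4BL (553, others 226 to 280.4).

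The change from HD to 12 DAA differed between the double mutant and WT (edgeR interaction term, adjusted P ≤0.01) by -3.06 on the log2 scale for TaNAAT2 on 1AL, -3.98 for TaNAAT2 on 1BL, -4.83 for TaZIP3 on 2AL, -3.17 for TaZIP3 on 2BL, -3.99 for TaZIP13-like2 on 2BS, 2.23 for metallothionein type 3, 9.37 for the 1BL thioredoxin h-type locus (high or near 0 by library within WT) and -3.33 for the undescribed 4BL locus on contig 6992123. For this last locus it also differed from *gpc-A1*, by -3.20.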

How the results depend on the processing

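Of 755 DE loci (384 higher, 371 lower), edgeR alone gave 1135 (648 higher) and DESeq2 alone 3971 (1898 higher and 2073 lower). Fits over all 9 groups gave 1304, of which 528 were higher and 776 lower (616 shared with the 755), and the replicate block 179 (119 higher and 60 lower). The share of higher loci was 50.9%, against 40.5% over all groups and 66.5% with the block. With 1 library left out, 154 to 822 loci were DE, 63 to 371 of them higher and 41 to 558 lower. Fewer samples reduce what the comparison of means can call, but without replicate 1 of 12 DAA the number rose. Other size factors (734), no filter (780) and a stricter filter (782) were within 1.5 times of the main count. The 38 named DE loci kept their direction in these fits, and 9 were DE with the block. The difference in response from WT was past the threshold at 119 loci, at 319 in DESeq2, at 68 in the fit over all groups, at 120 with the replicate block and at 85 to 200 with 1 library left out (200 without replicate 3 of WT at HD). The change was the more positive in the double mutant at 51 of the 119, 157 of the 319, 11 of the 68 and 46 of the 120. The response differed from that of *gpc-A1* at 1 locus, at 20 in DESeq2 and 2 over all groups, and at 1 in every fit with 1 library left out. The causes were not tested.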
